A study of Homo sapiens with 2 samples.

Results

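The antioxidant, glutathione and NRF2 genes described here are 35 genes chosen by symbol as members of one pathway; all 35 were found among the 46732 genes of the deposited gene table. They were measured by RNA-seq in 2 libraries of secondary mammospheres. The T47D cells used are a standard human breast cancer cell line of luminal type that carries the estrogen receptor, grown as floating spheres for 7 days and, after passage, for 7 days more. One library is labelled CIC knockdown and the other control; CIC (capicua) is a DNA-binding repressor of genes downstream of receptor tyrosine kinases and ERK. How CIC was knocked down, and what the control cells received, is not stated in the labels. Duplicates are mentioned in the design text; the tables have 1 column per group, and whether it pools them is not stated. No test between groups could therefore be made, and the values below describe these 2 libraries.

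NRF2, the product of NFE2L2, is a transcription factor that KEAP1 keeps low by presenting it to a CUL3 ubiquitin ligase. When oxidants or electrophiles modify cysteines of KEAP1, NRF2 accumulates, pairs with small MAF proteins and binds antioxidant response elements in genes of glutathione synthesis, thioredoxin recycling, quinone reduction and NADPH supply. The glutathione and thioredoxin systems then reduce peroxides through glutathione peroxidases and peroxiredoxins, with NADPH from the pentose phosphate pathway as the electron source.

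The library labelled CIC knockdown held 68420805 counts and the control library 47099221. CIC itself had 872 counts in the library labelled CIC knockdown and 607 in control, a ratio of 0.98 with a 95% counting interval of 0.882 to 1.09, so CIC mRNA was not lower in the library named for its knockdown. All 10 luminal epithelial markers examined passed 100 counts, and their summed TPM was 8174 in the library labelled CIC knockdown and 8072 in control. By counting interval 4 of them were higher and 4 lower. The higher ones were PGR, the progesterone receptor, at a ratio of 2.07 (1.94 to 2.22), FOXA1 at 1.13 (1.10 to 1.16), SPDEF at 1.11 and CDH1 at 1.10. The lower ones were GATA3 at 0.960, KRT8 at 0.962, ESR1 at 0.964 and KRT18 at 0.994. Of the leukocyte markers, PTPRC and CD3E had 0 counts in both libraries, and no leukocyte or endothelial marker reached 100 counts in either. The 6 fibroblast markers summed to 26.0 TPM in the library labelled CIC knockdown and 14.1 TPM in control; COL1A2 and PDGFRA were at 0 in both, while COL3A1 had 8415 counts in the library labelled CIC knockdown and 2384 in control, and COL1A1 had 168 and 58. LUM lay the other way, with 432 counts in the library labelled CIC knockdown and 550 in control, a ratio of 0.536 (0.471 to 0.609). Their part in the results below was not tested, and in bulk RNA fewer cells of a type and less RNA per cell cannot be told apart.

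The antioxidant genes lay close to equal levels in the 2 libraries, with 1 exception. OSGIN1, a stress-induced growth inhibitor gene that NRF2 activates, was 2.15 times as high in the library labelled CIC knockdown as in control. The other genes that were higher stood at ratios of 1.06 to 1.24, among them NQO1, GSR, MGST1, PRDX1, TALDO1 and GCLM, and the lower ones at 0.826 to 0.949, with MGST3 and HMOX1 the lowest. NFE2L2 itself did not differ beyond counting error.

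Of the 35 genes, 32 had at least 100 counts in at least 1 library. Their median log2 ratio of the library labelled CIC knockdown to control was 0.10, against 0.02 over the 13722 genes of the table with that many counts. A gene is called higher or lower here when its 95% counting interval, an exact interval for the ratio that covers counting error only, lies on 1 side of 1. By that rule 16 of 32 were higher, or 50%, where 33.8% of all genes were, and 8 were lower, or 25%, where 27.3% of all genes were. The intervals of the other 8 held 1. Deep counts make narrow intervals, and 28 of the genes had at least 1000 counts; among these 15 were higher and 7 lower (53.6% and 25%), beside 38.6% and 29.5% of the 8625 genes with that many. With 1 of 32 at least 1.5-fold higher and 0 at least 1.5-fold lower, large differences were no more common than over all genes, where the shares were 4.28% and 3.43%. All but OSGIN1, 31 of 32 or 96.9%, stayed within 1.3-fold of an equal level, as did 82.4% of all genes.

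**Figure D1:**
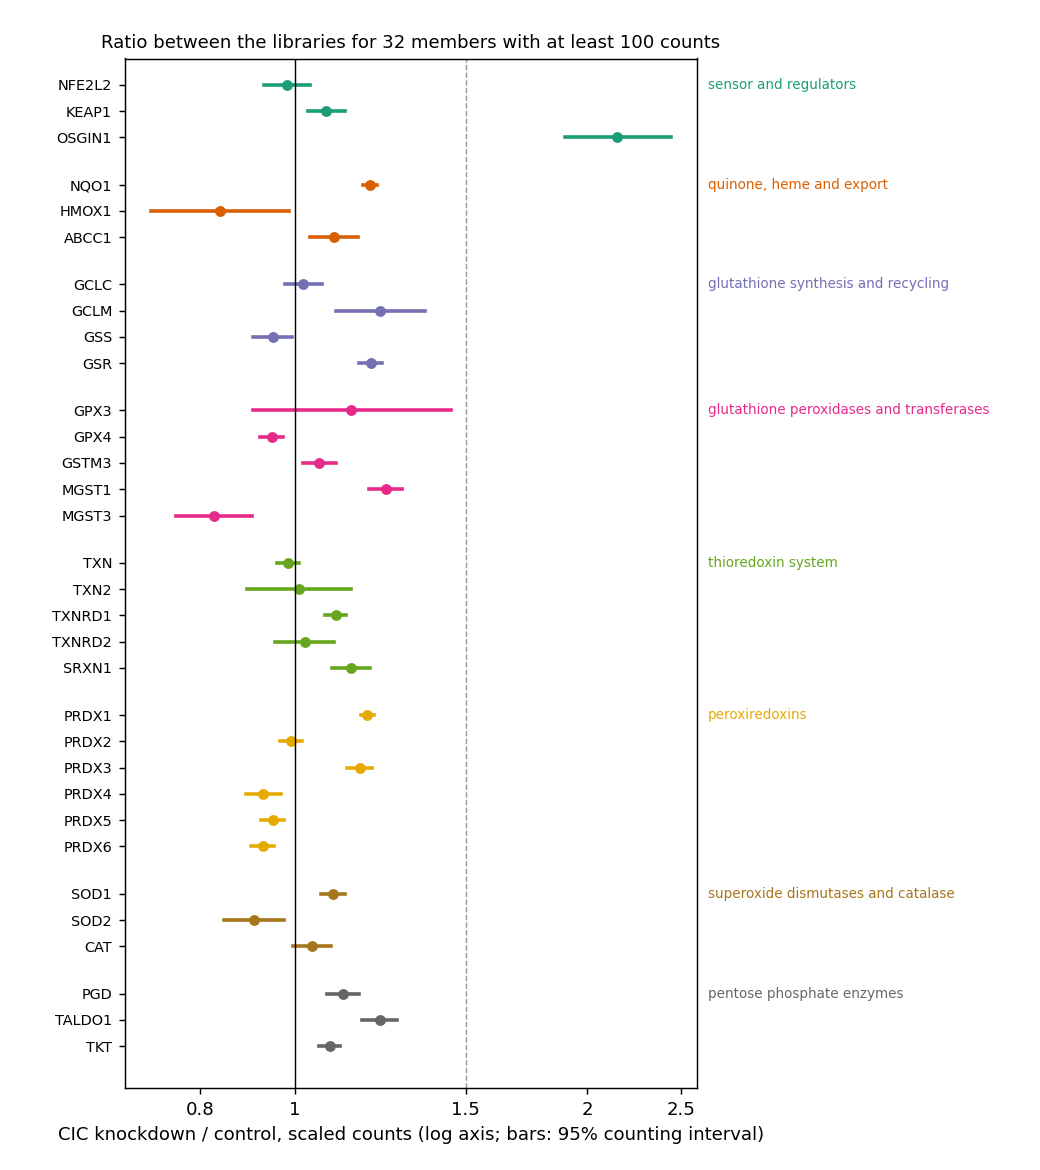
Ratio of scaled counts in the library labelled CIC knockdown over control (x axis, log scale) for the 32 genes with at least 100 counts, grouped by role; points are ratios and bars 95% counting intervals, with lines at 1 and 1.5. OSGIN1 stands alone at 2.15, and all other ratios lie between 0.826 and 1.24.

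In absolute level the genes spanned a wide range of TPM, the authors' unit of transcript abundance scaled for length. PRDX1 was the most abundant in each library, followed by TXN and PRDX2. At over 100 TPM stood 11 genes in the library labelled CIC knockdown and 9 in control; 3 were under 1 TPM in both. The 35 genes summed to 3103 TPM in the library labelled CIC knockdown and 2813 TPM in control, and the 6 peroxiredoxins made up 45.7% and 45.6% of these sums. TPM was higher in the library labelled CIC knockdown for 26 of the 35. Among those with at least 100 counts it was higher for 24 of 32, or 75%, beside 60.3% of all genes with that many counts.

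**Figure D2:**
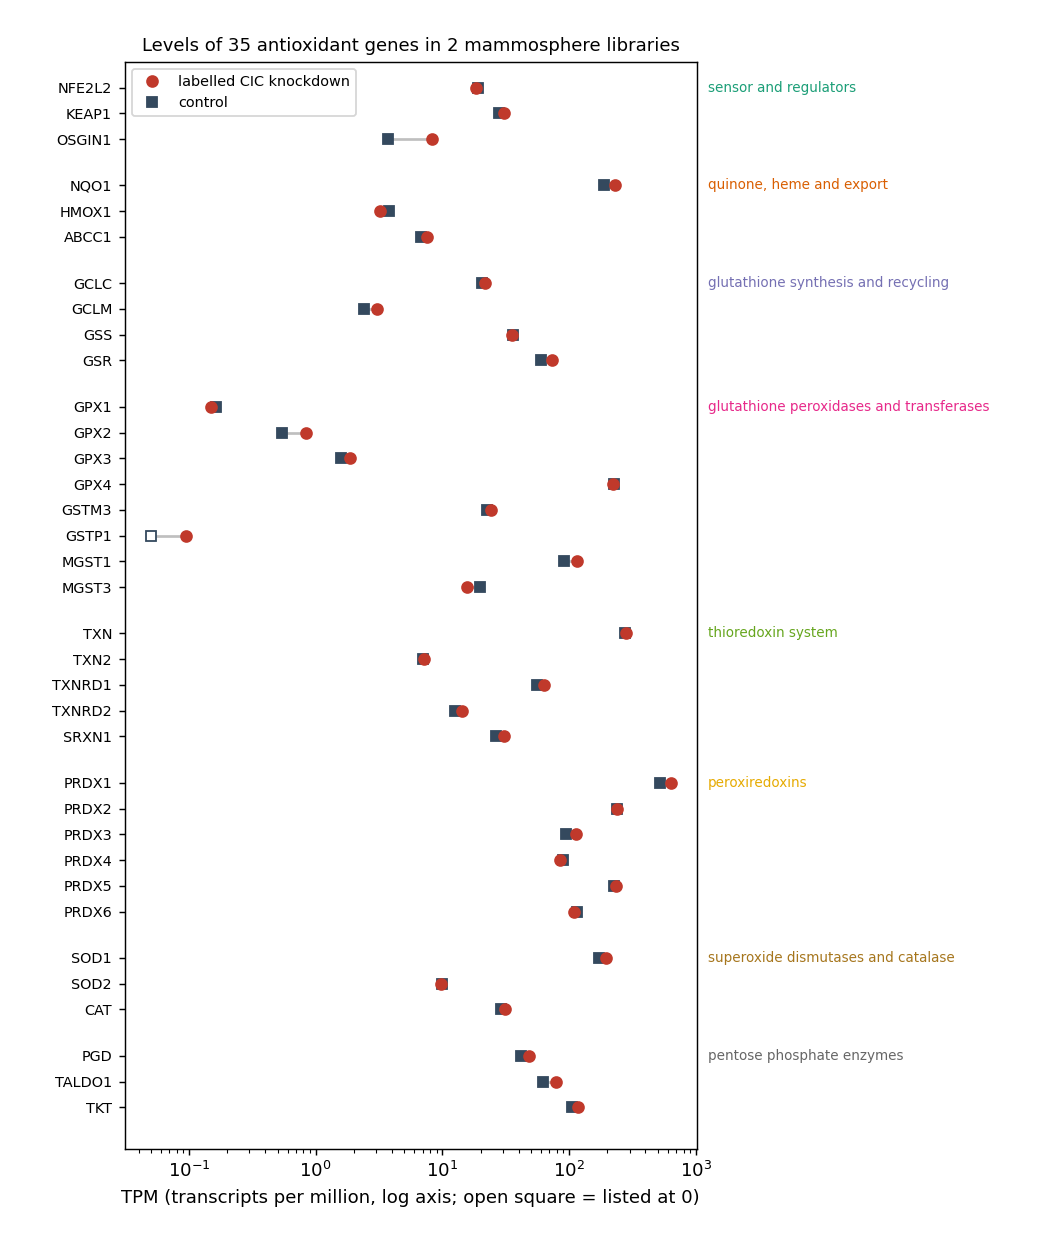
TPM of the 35 genes (x axis, log scale) in the library labelled CIC knockdown (circles) and in control (squares), grouped by role; the open square marks GSTP1, listed at 0 in control. Most pairs lie close together beside levels that reach 635 TPM for PRDX1. Farther apart are GPX2, GSTP1 and OSGIN1, the last at 8.21 TPM in the library labelled CIC knockdown and 3.72 TPM in control.

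Among the regulators, NFE2L2 (gene 4780, GRCh38 chromosome 2, 177230303 to 177265131, minus strand) had 3303 counts in the library labelled CIC knockdown and 2294 in control, or 18.3 and 19.0 TPM. Its ratio was 0.982 (0.931 to 1.04). KEAP1, its inhibitor (gene 9817, chromosome 19, 10486125 to 10503356, minus strand), had 5225 counts in the library labelled CIC knockdown and 3305 in control, a ratio of 1.08 (1.03 to 1.13). The messages for NRF2 and its inhibitor therefore differed between the libraries by less than 10%.

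OSGIN1 (gene 29948, chromosome 16, 83953240 to 83966332, plus strand) had 1046 counts in the library labelled CIC knockdown and 332 in control, or 8.21 and 3.72 TPM. The ratio of 2.15 (1.90 to 2.44) put it above 99.0% of the 13722 genes by log2 ratio. The gene has 1 annotated transcript and no other gene of the table overlaps it, so the division of reads among transcripts or overlapping genes does not enter this value. Of the nearest genes with counts, MLYCD, which ends 26209 bases upstream, had a ratio of 1.14 (1.07 to 1.21), and NECAB2, which begins 2300 bases downstream, had 30 and 28 counts, at a ratio of 0.731 (0.422 to 1.27). Farther off, LOC102724163 upstream had 148 counts in the library labelled CIC knockdown and 50 in control, a ratio of 2.02 (1.46 to 2.84), and HSDL1 downstream had 1821 and 5133, a ratio of 0.242 (0.229 to 0.255). In the table that adds assembled transcripts OSGIN1 has the same transcript and the same counts. Its log2 ratio there, 1.11 beside 1.10 here, differs by library scaling only and is no second measurement.

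The promoter of OSGIN1 is shown because it carries, on the minus strand, an octamer that CIC is known to bind. CIC octamers were searched as TGAATGAA, TGAATGGA, TCAATGAA and TCAATGGA, and the antioxidant response element core as TGACNNNGC, each on both strands, in RefSeq windows of 300 bases (build GRCh38.p14), which run from 250 bases before to 50 after an annotated start. Of the 35 genes, 27 matched at least 1 window by gene identifier, giving 40 windows; HMOX1, ABCC1, GSS, GSR, TXN2, PRDX1, PRDX6 and SOD1 had none. A CIC octamer occurred in 2 of the 40 windows, or 5%, those of OSGIN1 and GSTM3, beside 3.77% of all 35116 windows and 2.44% of the windows of genes with at least 100 counts. Both sequences are given 5′ to 3′ along the gene's strand, with the octamer, or its reverse complement for a minus-strand match, in capitals; no octamer overlapped a response element core.
OSGIN1 chr16:83952990-83953289, plus strand: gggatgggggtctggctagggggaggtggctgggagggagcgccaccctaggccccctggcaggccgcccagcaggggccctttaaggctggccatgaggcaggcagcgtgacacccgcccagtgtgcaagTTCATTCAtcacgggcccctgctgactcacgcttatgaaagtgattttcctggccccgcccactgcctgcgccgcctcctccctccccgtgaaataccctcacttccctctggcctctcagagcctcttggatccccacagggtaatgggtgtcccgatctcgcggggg
GSTM3 chr1:109740989-109741288, minus strand: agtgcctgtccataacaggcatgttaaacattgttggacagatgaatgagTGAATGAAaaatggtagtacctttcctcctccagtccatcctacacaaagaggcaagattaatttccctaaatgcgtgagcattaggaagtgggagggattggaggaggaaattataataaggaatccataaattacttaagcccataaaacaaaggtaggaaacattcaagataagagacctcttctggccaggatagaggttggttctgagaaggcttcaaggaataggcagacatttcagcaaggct
In OSGIN1 the match starts 119 bases before the start site and in GSTM3, a cytosolic glutathione transferase gene, 200 bases before it. The genes differ in ratio: 2.15 for OSGIN1 and 1.06 (1.02 to 1.10) for GSTM3, which had 6623 counts in the library labelled CIC knockdown and 4258 in control. Over all genes with a window and at least 100 counts, 31 of the 360 with an octamer were at least 1.5-fold higher, or 8.61%, beside 394 of 10242, or 3.85%, of those without. By counting interval the gap was smaller: 40% with an octamer and 34.9% without were higher, and 24.2% and 27.4% were lower. The median log2 ratios were 0.06 and 0.03. The share at least 1.5-fold lower was not taken, and a part of CIC in these shares was not tested. A match in a window is a description of these letters and does not show binding.

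The response element core occurred in 8 of the 40 windows, or 20%, belonging to 7 genes, beside 13.3% of all windows and 14.6% of the 15359 windows of genes with at least 100 counts. The windows below are shown because GCLM was among the higher genes, TXNRD1 is shown at the start that holds nearly all of its counts, and GSTP1 carries the core but was hardly expressed; capitals mark the core or its reverse complement.
GCLM chr1:93909381-93909680, minus strand: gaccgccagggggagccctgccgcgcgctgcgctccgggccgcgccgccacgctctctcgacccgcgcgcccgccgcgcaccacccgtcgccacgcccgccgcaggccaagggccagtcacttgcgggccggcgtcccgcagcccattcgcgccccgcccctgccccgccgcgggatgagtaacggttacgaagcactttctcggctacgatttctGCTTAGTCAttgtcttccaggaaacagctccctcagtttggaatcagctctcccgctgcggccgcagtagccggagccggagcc
TXNRD1 chr12:104286782-104287081, plus strand: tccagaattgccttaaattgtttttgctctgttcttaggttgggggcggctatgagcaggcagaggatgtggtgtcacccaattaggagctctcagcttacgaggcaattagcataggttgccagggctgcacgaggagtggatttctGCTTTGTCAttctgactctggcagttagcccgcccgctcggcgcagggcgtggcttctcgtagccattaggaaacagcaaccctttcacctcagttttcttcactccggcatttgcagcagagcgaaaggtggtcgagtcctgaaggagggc
GSTP1 chr11:67583562-67583861, plus strand: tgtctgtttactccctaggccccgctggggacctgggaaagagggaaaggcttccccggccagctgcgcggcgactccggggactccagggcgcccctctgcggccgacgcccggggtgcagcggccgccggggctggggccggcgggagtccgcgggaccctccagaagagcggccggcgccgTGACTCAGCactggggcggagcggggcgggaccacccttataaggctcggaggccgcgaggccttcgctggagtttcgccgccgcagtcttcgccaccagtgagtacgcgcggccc
The matches were TGACTAAGC in GCLM, TGACAAAGC in TXNRD1 and TGACTCAGC in GSTP1, beginning 34, 102 and 66 bases before the start site of the window. For GSTP1 that site is not the start of the deposited transcript, which begins at 67583595, upstream of the core. The other genes with a core were KEAP1, PGD, MGST1 and GPX2. The 5 of these 7 with at least 100 counts were all higher by their intervals, at ratios from 1.08 for KEAP1 to 1.24 for MGST1. PGD and TXNRD1 had a core at the start with all or nearly all of their counts. The KEAP1 core lay at a start with 34.3% of counts in the library labelled CIC knockdown and 33.4% in control. The KEAP1 start with 53.7% and 50.7% had no core in its window. The GCLM core lay at a start with 5.24% and 94.0%. The MGST1 core lay near a start with 4.53% and 1.35%, and its other windows had none. Of the 19 genes with windows but no core, 7 were higher, 5 lower and 7 held 1. Response elements outside these windows were not searched for, so a gene without a core here may still have one elsewhere. Over all genes the share called higher was 35.5% of 2052 with a core and 34.9% of 8550 without.

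Among the detoxifying and exporting products, NQO1, a quinone reductase and a standard marker of NRF2 activity (gene 1728, chromosome 16, 69709401 to 69726560, minus strand), had 38036 counts in the library labelled CIC knockdown and 21683 in control, or 229 and 187 TPM. The ratio of 1.20 (1.18 to 1.22) came with a near-constant transcript make-up: variant 1 held 84.2% of the counts in the library labelled CIC knockdown and 83.0% in control. ABCC1, which exports glutathione conjugates, had 3179 and 1975 counts, at a ratio of 1.10 (1.04 to 1.16). HMOX1, heme oxygenase and another well-known NRF2 target (gene 3162, chromosome 22, 35381096 to 35394207, plus strand), lay the other way, with 334 counts in the library labelled CIC knockdown and 272 in control, a ratio of 0.837 (0.711 to 0.987). The interval of HMOX1 held 1, at 0.664 to 1.06, when counts were halved for the case that both mates of a pair had been counted.

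In glutathione synthesis and recycling, the enzyme subunits differed unequally. GCLC, the catalytic subunit of the first and rate-limiting step, had 4843 counts in the library labelled CIC knockdown and 3234 in control, a ratio of 1.02 (0.977 to 1.07). GCLM, the modifier subunit of the same enzyme, had 992 and 552 counts, at a ratio of 1.23 (1.10 to 1.36). GCLM was much the lower in level of the pair, at 3.03 TPM in the library labelled CIC knockdown and 2.41 TPM in control, against 21.6 and 20.4 TPM for GCLC. GSS, which makes glutathione in the second step, had 4484 and 3221 counts, at a ratio of 0.949 (0.907 to 0.994); its interval held 1 with total-count scaling, with halved counts and in the table with assembled transcripts. GSR, which regenerates reduced glutathione with NADPH (gene 2936, chromosome 8, 30678061 to 30727999, minus strand), had 14790 and 8420 counts, or 73.5 and 59.9 TPM, a ratio of 1.20 (1.17 to 1.23).

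The glutathione peroxidases were carried by GPX4, which reduces lipid hydroperoxides in membranes and guards against ferroptosis. GPX4 (gene 2879, chromosome 19, 1103994 to 1106779, plus strand) stood at 220 TPM in the library labelled CIC knockdown and 225 TPM in control, from 11586 and 8344 counts, a ratio of 0.947 (0.921 to 0.974). The other peroxidases were low. GPX1, the cytosolic enzyme of most tissues, had 12 counts in the library labelled CIC knockdown and 9 in control, and the 2 pseudogenes named for it had 0 counts in both. GPX2, an epithelial peroxidase, had 55 and 26 counts, and GPX3, which is secreted, had 198 and 118; none of the 3 differed beyond its counting interval. GPX2 overlaps CHURC1-FNTB on the opposite strand, and the labels do not say whether the authors' counting used strand.

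Among the glutathione transferases, the membrane-bound MGST1 and MGST3 lay on opposite sides of 1. MGST1 (gene 4257, chromosome 12, 16347142 to 16377192, plus strand) had 7413 counts in the library labelled CIC knockdown and 4074 in control, or 116 and 91.5 TPM, a ratio of 1.24 (1.19 to 1.29). MGST3 (gene 4259, chromosome 1, 165631234 to 165656136, plus strand) had 1061 and 876 counts, or 15.5 and 19.9 TPM, a ratio of 0.826 (0.755 to 0.904), the lowest of the 32. GSTP1, the pi-class transferase, had 7 counts in the library labelled CIC knockdown and 0 in control; its interval ran from 0.983 upward and held 1, and a count of 0 in control allows a level of up to 0.0640 CPM (counts scaled to library size). GSTP1 and GPX1 were thus near the floor of detection in both libraries.

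**Figure D3:**
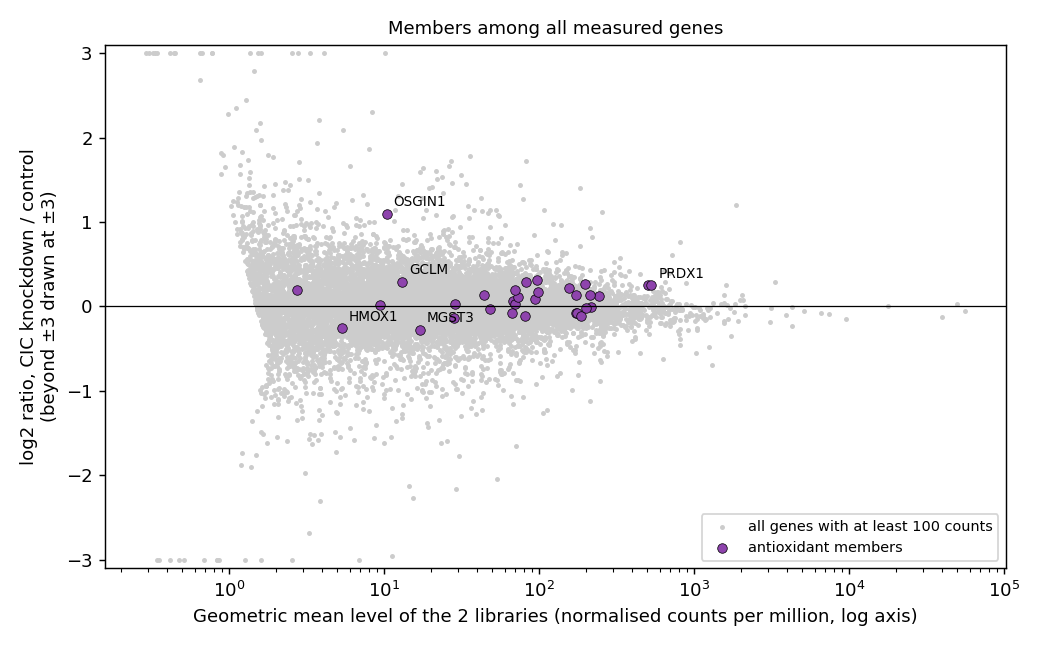
log2 ratio of the library labelled CIC knockdown over control (y axis, prior count of 2) against the geometric mean level of the 2 libraries in normalised CPM (x axis, log scale) for 13722 genes with at least 100 counts (grey) and the 32 antioxidant genes among them (purple). OSGIN1, at 1.10, stands apart from the other antioxidant genes, which lie between -0.28 and 0.31.

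In the thioredoxin system, the reductase was higher and its substrate was not. TXN, cytosolic thioredoxin, had 13655 counts in the library labelled CIC knockdown and 9453 in control, or 280 and 277 TPM, a ratio of 0.985 (0.960 to 1.01). TXNRD1, the selenoprotein that reduces it (gene 7296, chromosome 12, 104215779 to 104350307, plus strand), had 15322 and 9482 counts, at a ratio of 1.10 (1.07 to 1.13). SRXN1, which repairs overoxidised peroxiredoxins, had 5159 and 3077 counts, at a ratio of 1.14 (1.09 to 1.20). The mitochondrial pair TXN2 (643 and 434 counts) and TXNRD2 (1997 and 1330 counts) had ratios of 1.01 (0.893 to 1.14) and 1.02 (0.955 to 1.10). TXNRD1 overlaps EID3 and RPL18AP3 on its own strand, so its counts carry an uncertainty that the interval leaves out.

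The peroxiredoxins, which reduce hydrogen peroxide, most of them with electrons from thioredoxin, divided by member. PRDX1, the cytosolic enzyme and a known NRF2 target (gene 5052, chromosome 1, 45511035 to 45522890, minus strand), had 39828 counts in the library labelled CIC knockdown and 22852 in control, or 635 and 521 TPM, a ratio of 1.19 (1.17 to 1.21). PRDX3, the mitochondrial form, had 11638 and 6800 counts, at a ratio of 1.17 (1.13 to 1.20). These were the higher members. PRDX2, also cytosolic, had 14752 and 10142 counts, at a ratio of 0.992 (0.967 to 1.02). PRDX4 of the endoplasmic reticulum (5354 and 3934 counts) and PRDX6 (12313 and 9049 counts) each had a ratio of 0.928, with intervals of 0.891 to 0.967 and 0.903 to 0.954. PRDX5, found in mitochondria, peroxisomes and cytosol, was lower in counts (11704 and 8409) at 0.949 (0.923 to 0.976) but higher in TPM, at 237 TPM in the library labelled CIC knockdown and 226 TPM in control. Pseudogenes took few reads: PRDX1P1 had 30 and 38 counts and PRDX2P3 59 and 22.

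The superoxide dismutases also split. SOD1, the copper and zinc enzyme of the cytosol (gene 6647, chromosome 21, 31659622 to 31668931, plus strand), had 12440 counts in the library labelled CIC knockdown and 7750 in control, a ratio of 1.09 (1.06 to 1.13). SOD2, the manganese enzyme of mitochondria, had 1850 and 1389 counts, at a ratio of 0.908 (0.847 to 0.975), which held 1 with halved counts. Its locus overlaps ACAT2 and WTAP on the opposite strand, and ACAT2, a gene of cholesterol metabolism, had 3957 counts in the library labelled CIC knockdown and 1748 in control. CAT, peroxisomal catalase, had 4737 and 3099 counts, at a ratio of 1.04 (0.996 to 1.09); its interval lay above 1 with total-count scaling and in the table with assembled transcripts.

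All 3 pentose phosphate enzymes were higher, by less than 1.3-fold. PGD, which makes NADPH in the oxidative branch (gene 5226, chromosome 1, 10399064 to 10420511, plus strand), had 7222 counts in the library labelled CIC knockdown and 4389 in control, a ratio of 1.12 (1.08 to 1.17). TALDO1, transaldolase (gene 6888, chromosome 11, 747464 to 765012, plus strand), had 6249 and 3482 counts, or 78.6 and 62.7 TPM, a ratio of 1.22 (1.17 to 1.28). TKT, transketolase (gene 7086, chromosome 3, 53224707 to 53256114, minus strand), had 17522 and 10998 counts, at a ratio of 1.09 (1.06 to 1.11). Transaldolase and transketolase belong to the non-oxidative branch, so both branches were represented.

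The deposited transcript table divides each gene's counts among its annotated transcripts, and several antioxidant genes, some of them with near-equal totals, were divided differently in the 2 libraries. The share of counts that moved was taken as the sum of the absolute differences in transcript share, divided by 2. Among the 23 antioxidant genes with at least 2 transcripts and 100 counts in each library, the median moved share was 4.33%, and 5 of 23, or 21.7%, moved by over 10%. Over the 10151 genes of that kind the median was 15.6%, 61.4% moved by over 10%, and 16.0% moved by over 50%. A moved share comes from the authors' division of coverage, whose error is not given, and the intervals below cover counting error only.

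GCLM had the largest move, at 89.2%. Variant 1 held 5.24% (exact binomial 95% interval 3.94 to 6.82) of its counts in the library labelled CIC knockdown and 94.0% (91.7 to 95.8) in control, or 52 and 519 counts. Predicted variant X3, which begins 404 bases downstream, held 847 and 2 counts, or 85.4% (83.0 to 87.5) and 0.362% (0.0439 to 1.303). The variants are 4883 and 4840 bases long. The GCLM window printed above lies at the start of variant 1, which held most counts in control. PRDX5 had the second largest, at 78.4%: variant 5 held 94.0% (93.6 to 94.5) in the library labelled CIC knockdown and 15.7% (14.9 to 16.5) in control, while variant 1 held 0.402% (0.295 to 0.534) and 63.2% (62.2 to 64.2). Variant 5 begins 121 bases downstream of the other PRDX5 variants and is 751 bases long against 860 for variant 1.

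NFE2L2 moved by 28.2%. Variant 1, from the upstream start of the main pair, held 41.3% (39.6 to 43.0) of the counts in the library labelled CIC knockdown and 65.2% (63.2 to 67.2) in control, or 1364 and 1496 counts. Variant 2, from a start 596 bases downstream, held 42.9% (41.2 to 44.6) and 15.5% (14.1 to 17.1), or 1418 and 356 counts. The total of NFE2L2 thus stayed near equal while its assigned starts did not. In the table with assembled transcripts, variant 1 held 39.5% and 55.3% and variant 2 39.0% and 11.9%, the same direction, with an assembled variant of the locus at 219 counts in the library labelled CIC knockdown and 371 in control.

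In TXNRD2 variant 1 held 74.5% (72.5 to 76.4) in the library labelled CIC knockdown and 54.1% (51.4 to 56.8) in control. In the table with assembled transcripts it held 38.0% and 27.2%, and an assembled variant 40.8% and 32.6%. In MGST3 the reference variant held 86.2% (84.0 to 88.3) and 75.6% (72.6 to 78.4); its counts were 915 and 662, a ratio of 0.943 (0.852 to 1.04), whereas the short predicted variant X1 had 146 and 214, a ratio of 0.465 (0.374 to 0.577). The lower total of MGST3 therefore lay mostly in that short variant. ABCC1 moved by 2.70% among annotated transcripts but by 41.5% when an assembled variant of 30 exons was added, which took 3248 counts in the library labelled CIC knockdown and 1184 in control. PRDX1, PRDX3, GSR, GSS, PGD, TXN and GSTM3 each moved by under 1%.

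**Figure D4:**
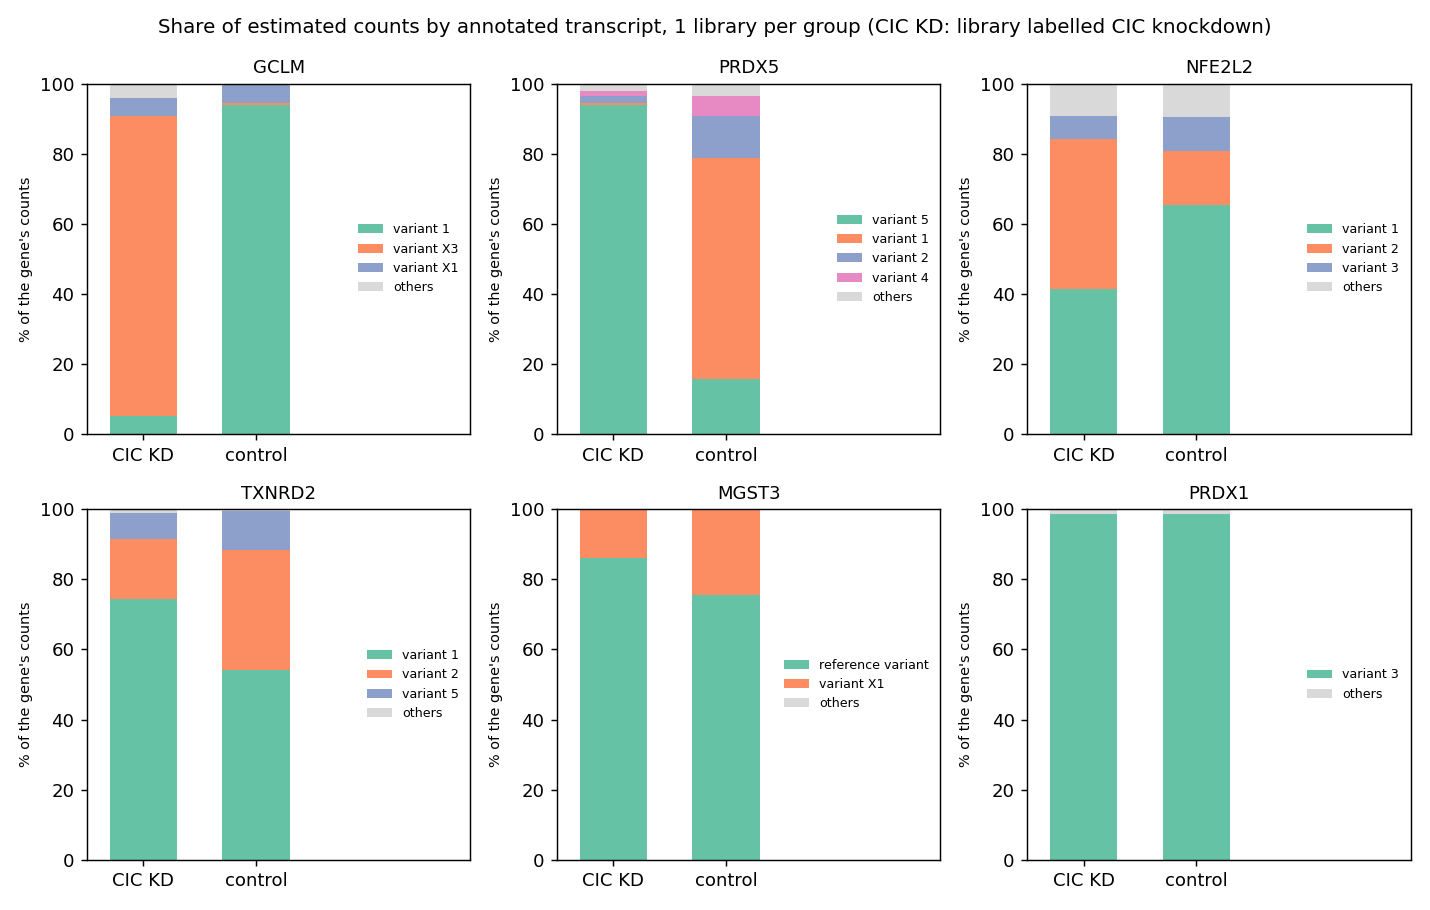
Share of each gene's estimated counts (y axis, percent) held by its annotated transcripts of at least 5% in either library, for the library labelled CIC knockdown (left bar) and control (right bar), in GCLM, PRDX5, NFE2L2, TXNRD2, MGST3 and PRDX1. Variant X3 of GCLM holds 85.4% of counts in the library labelled CIC knockdown and 0.362% in control, while PRDX1 has the same make-up in both.

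Other redox genes were taken from 7 lists of 119 genes, of which 118 were found and 102 had at least 100 counts; 37 were higher, 35 lower and 30 held 1, with a median log2 ratio of 0.03. Beside these counts, and those of each list below, stand 33.8% higher and 27.3% lower over all genes with at least 100 counts. Other NRF2 targets had a median of 0.11, with 15 of 27 higher and 7 lower. AKR1B10, an aldo-keto reductase, had 232 counts in the library labelled CIC knockdown and 81 in control, a ratio of 1.95 (1.51 to 2.55), and PIR (pirin) a ratio of 1.37 (1.24 to 1.52). SLC7A11, the cystine importer that supplies glutathione synthesis, had 2241 and 2290 counts, at a ratio of 0.667 (0.629 to 0.708), and the exporter ABCC5 a ratio of 0.747 (0.718 to 0.777). NRF2 targets in these lists thus lay on both sides.

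Of 15 partners and regulators of NRF2, 7 were higher and 2 lower, where 33.8% and 27.3% of all genes were. NFE2L3, a relative of NRF2, had a log2 ratio of 0.58 (877 counts in the library labelled CIC knockdown and 399 in control) and the phosphatase PGAM5 a ratio of 1.19 (1.15 to 1.24). BACH1, which represses NRF2 targets, stood at 0.891 (0.847 to 0.938) and PARK7 (DJ-1) at 0.889 (0.862 to 0.917). Other glutathione transferases divided 3 higher and 3 lower of 8, from GSTM4 at 1.32 (1.09 to 1.62) and GSTCD at 1.24 (1.16 to 1.34) to GSTK1 at 0.947 (0.897 to 0.9998) and GSTA1 at 0.680 (0.575 to 0.803). In other glutathione metabolism 7 of 20 were higher and 7 lower. The related enzymes CHAC1 and CHAC2, which break down glutathione, lay apart: CHAC2 had 486 counts in the library labelled CIC knockdown and 226 in control, a ratio of 1.47 (1.25 to 1.73), and CHAC1 had 328 and 452, a ratio of 0.495 (0.428 to 0.572). CTH, which makes cysteine, stood at 1.39 (1.09 to 1.80), and the endoplasmic reticulum peroxidase GPX8 at 0.660 (0.555 to 0.784).

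The selenoprotein list, most of whose products help to insert selenocysteine into enzymes such as GPX4 and TXNRD1, had the lowest median, -0.34, with 5 of 7 lower and 0 higher. The exceptions are SELENBP1, which binds selenium, and SEPHS1, a relative of the synthetase SEPHS2. SEPHS1 had 4473 counts in the library labelled CIC knockdown and 4374 in control, a ratio of 0.697 (0.669 to 0.727), and SEPSECS, the selenocysteinyl-tRNA synthase, a ratio of 0.728 (0.683 to 0.776). SEPHS2, the selenophosphate synthetase itself, at 1.04 (0.977 to 1.11) and SELENBP1 at 0.998 (0.971 to 1.03) held 1. Other pentose phosphate and NADPH enzymes had 6 of 8 lower and 0 higher, with a median of -0.13, among them ME2 at 0.717 (0.580 to 0.885) and NADK, which makes NADP, at 0.785 (0.745 to 0.828); RPIA at 1.07 (0.957 to 1.20) and NADK2 at 0.996 (0.956 to 1.04) held 1. IDH1 at 1.29 (1.26 to 1.33) and ME1 at 1.33 (1.25 to 1.41), which also make NADPH and stood in the list of other NRF2 targets, were higher, so enzymes of NADPH supply lay on both sides. In the remaining thioredoxin and repair genes 5 of 17 were higher and 5 lower, from MSRA at 1.80 (1.40 to 2.32) and SESN3 at 1.24 (1.18 to 1.31) to SESN2 at 0.768 (0.707 to 0.834) and TXNIP, the thioredoxin inhibitor, at 0.683 (0.671 to 0.695).

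**Figure D5:**
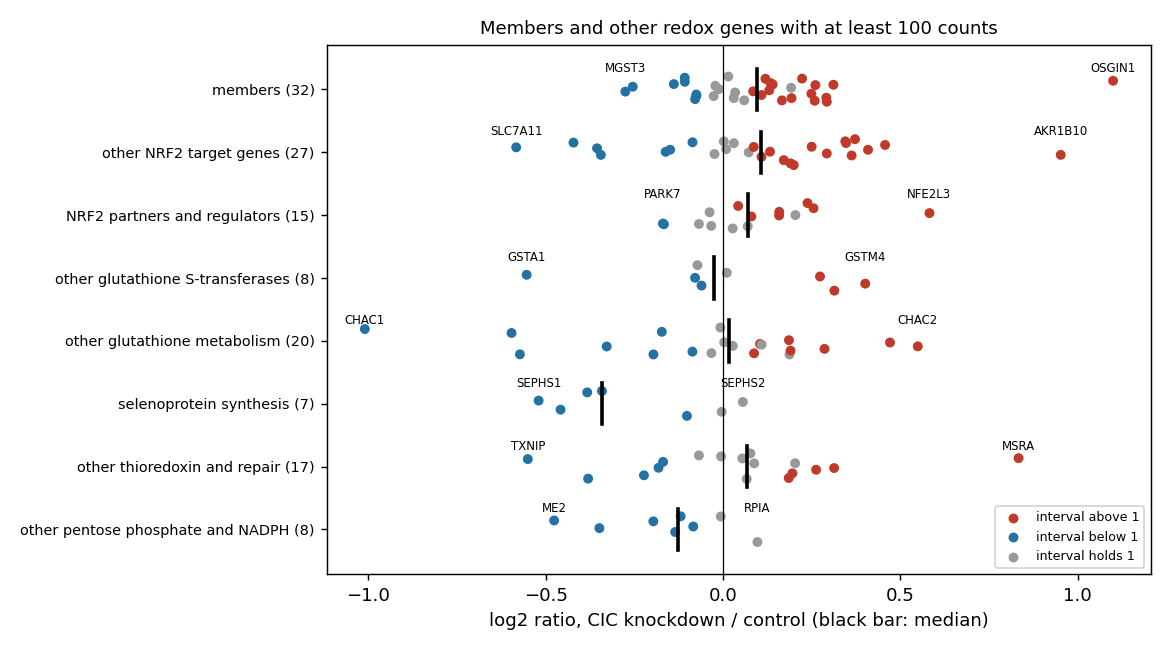
log2 ratio of the library labelled CIC knockdown over control (x axis) for the 32 antioxidant genes (members) and 7 lists of other redox genes with at least 100 counts; each point is a gene, red where its counting interval lies above 1, blue where below and grey where it holds 1, and black bars are medians. The medians run from 0.11 for other NRF2 targets to -0.34 for the selenoprotein list.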

How the data were processed

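Per the labels' protocols, total RNA of the mammospheres was made into strand-specific libraries; Trimmomatic, HISAT2, StringTie and the build GRCh38 are listed, without versions, per the submitters' processing notes. The deposited read counts are estimated counts per gene and transcript, whole numbers as given by the authors and used without further rounding. The deposited FPKM and TPM values are the authors' length-scaled units, and TPM sums to nearly the same total in both libraries. No column of per-sample values was left unused for lack of a sample (0 columns).

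Library totals over all genes were scaled by TMM factors (edgeR 4.0.16, R 4.3.3) of 1.00 for CIC knockdown and 0.995 for control. Ratios are of scaled counts; log2 ratios use a prior count of 2. Intervals are exact Clopper-Pearson, conditional on the summed count, so they hold counting error alone, without the spread between cultures, PCR copies or the division of reads among transcripts. Whether a count is a read or a pair is not stated, so halved counts were tried; DESeq2 1.42.0 gave another scaling. The interval script was tested on simulated data. Members and gene lists were chosen with earlier results of these data known. All 35 members are named, with the 2 highest and 2 lowest genes of each of the 7 other pathway lists; markers and other genes were named after their values were seen. Loci are those of the deposited transcripts, with strand from GENCODE. The list of transcripts assembled outside genes was not used here. A few single genes outside the 35 are not reported here.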

Additional observations from a re-analysis of the deposited data

How the results depend on the processing

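The median log2 ratio of the antioxidant genes stayed between 0.10 and 0.15 under total-count scaling, DESeq2 size factors, prior counts of 0.5 and 5, TPM, FPKM (both with a pseudocount of 0.1), the table with assembled transcripts, minimum counts of 10 or none, and halved counts; no setting moved the median of all genes by more than 0.1. TPM and FPKM allow no counting interval; under the other settings and, added after seeing the data, a minimum of 1000 counts, the number of genes called higher ran from 15 to 17 and the number called lower from 7 to 8, except with halved counts, where it was 5 because the intervals widen; HMOX1, GSS and SOD2 then held 1. CAT was called higher with total-count scaling and in the table with assembled transcripts. OSGIN1 was the single gene at least 1.5-fold higher in each setting. Of 256 values of single genes under alternatives, 248 stayed inside their counting interval, 6 moved outside it and 2 reversed. All the moved and reversed values came from TPM or FPKM. Another prior count, or halving both libraries, hardly alters a ratio at these depths, so values under those settings could scarcely move. The reversed values were those of PRDX5: its log2 ratio was 0.066 in TPM and 0.047 in FPKM, against -0.08 in counts, and the cause was not tested. PRDX2 and TXN, whose intervals held 1, also changed sign in some settings. For GCLM, PRDX5 and MGST3 the table with assembled transcripts adds no variant and repeats the same counts. Their moved shares were therefore equal by construction, which is no second check. Where an assembled variant was added, the moved share depended on the gene. With and without that variant it was 19.6% and 20.9% for TXNRD2, and 28.4% and 28.2% for NFE2L2. It was 4.49% and 3.45% for TKT, 0.147% and 0.267% for GSS, and 41.5% and 2.70% for ABCC1. No paired analysis was possible because each group has 1 library, and no replicate could be left out. GSTP1, GPX1 and GPX2 were so shallow that only a large difference could have been detected. The intervals of GPX1 and GPX2 ran from 0.352 to 2.44 and from 0.889 to 2.40.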
